A study of Mus musculus with 2 samples.

Results

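The unfolded protein response and the integrated stress response were examined through 34 listed genes in organoids of mouse intestinal adenoma. The members were a fixed list of gene symbols, and all 34 were found among the 27514 genes that the tables of both libraries share. They comprise 15 chaperones and folding enzymes of the endoplasmic reticulum (ER), 6 genes of ER-associated degradation, 2 genes of the translocon, 4 ER stress sensors and factors, Atf4, and 6 targets of Atf4. The organoids came from adenomas of 17-week-old C57BL/6 mice of genotype ApcMin/+, in which 1 allele of the tumour suppressor Apc is truncated. One culture was grown with RSPO1-Fc, an Fc fusion of the Wnt agonist R-spondin 1 (10 µg/ml in the treatment protocol, while another label gives this number in mg/ml), and the control culture was grown without it. Each culture gave 1 droplet library of 3′ transcript ends counted by unique molecular identifiers (UMIs), so no difference between the cultures has a replicate check, and none was tested. The number of mice behind each culture is not given in the sources used here. Epithelial cells were barcodes above a UMI limit set for each library (5960 UMIs for RSPO1-Fc and 9810 for control) with at least 5 UMIs of Epcam, an epithelial adhesion molecule. They numbered 2751 of 2767 RSPO1-Fc cells and 1881 of 2269 control cells, where the study aimed at 5000 cells per library.

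As background, proteins that enter the secretory pathway fold in the ER with the help of chaperones such as BiP (Hspa5). When unfolded proteins accumulate, the sensors Ire1 (Ern1), Atf6 and Perk (Eif2ak3) are activated, and the factors Xbp1, cleaved Atf6 and Atf4 raise chaperones, degradation components and amino acid enzymes. Perk shares its target, the initiation factor eIF2α, with other kinases that sense amino acid shortage, haem shortage and viral RNA, and Atf4 and its targets are therefore read as the integrated stress response. In the gut, goblet and Paneth cells depend on Xbp1 because they secrete large amounts of mucin and defensins.

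The 2 programmes differ in the elements that control them, and the promoter stretches that hold these elements are shown here because the results are ordered by the same division. Windows from 250 bases before to 50 bases after the transcription start were taken from RefSeq (GRCm38.p6) and searched on both strands. A window was found for 30 of the 34 members, and none for Manf, Derl1, Atf6 and Hyou1. The ER stress response element (ERSE, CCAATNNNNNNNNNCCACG) occurred in the windows of 9 members, namely Hspa5, Hsp90b1, Calr, Canx, Pdia6, Dnajc3, Creld2, Syvn1 and Derl3, and in those of 37 of 27025 genes with a window (0.137%), these 9 included. The shorter form ERSE-II (ATTGGNCCACG), added to the search after the data had been seen, occurred in Dnajb11 and Herpud1 and in 12 of 27025 genes in all (0.0444%). The composite C/EBP-ATF element that Atf4 binds (TGATGNAA) occurred in Herpud1, Trib3, Chac1 and Asns and in 4.51% of all genes. The unfolded protein response element (UPRE, TGACGTGG) occurred in 0 of 30 members and in 0.714% of genes. A match is a description of these letters in this window and was not tested as a binding site. The members were listed as genes of these responses, so their counts beside the shares of all genes are no test. Each line below runs 5′ to 3′ along the strand of the gene, and capitals mark the element, which reads as its reverse complement where it lies on the opposite strand. Hspa5, Trib3 and Asns were chosen by the rule for named genes, and the other 5 lines were chosen after their values had been seen.
Hspa5, ERSE, chr2:34772015-34772053, plus strand: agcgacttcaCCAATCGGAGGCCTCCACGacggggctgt
Hsp90b1, 2 ERSE, chr10:86705523-86705666, minus strand: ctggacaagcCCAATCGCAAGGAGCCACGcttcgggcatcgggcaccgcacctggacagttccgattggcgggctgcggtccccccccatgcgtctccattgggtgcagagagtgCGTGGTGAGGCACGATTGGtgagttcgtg
Calr, ERSE on the opposite strand, chr8:84847065-84847103, minus strand: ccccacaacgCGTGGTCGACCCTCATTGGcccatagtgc
Creld2, ERSE on the opposite strand, chr15:88819510-88819548, plus strand: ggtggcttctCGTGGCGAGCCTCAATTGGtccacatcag
Herpud1, C/EBP-ATF element on the opposite strand and ERSE-II, chr8:94386307-94386397, plus strand: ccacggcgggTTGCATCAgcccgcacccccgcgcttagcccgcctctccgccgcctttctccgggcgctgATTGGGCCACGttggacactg
Trib3, C/EBP-ATF element on the opposite strand, chr2:152344029-152344056, minus strand: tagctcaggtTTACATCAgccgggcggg
Chac1, C/EBP-ATF element on the opposite strand, chr2:119351039-119351066, plus strand: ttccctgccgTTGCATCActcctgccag
Asns, C/EBP-ATF element, chr6:7693215-7693242, minus strand: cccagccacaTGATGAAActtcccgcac

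The libraries held 89437327 UMIs (RSPO1-Fc) and 91675581 UMIs (control). Epithelial cells had medians of 23548 and 27736 UMIs and of 3.39% and 6.23% mitochondrial UMIs in the RSPO1-Fc and control libraries. No barcode was shared between the cells of the 2 libraries. The cultures stood apart in genes unrelated to the list: in epithelial cells Xist had 3 UMIs with RSPO1-Fc and 100820 in control, the Y-linked Eif2s3y 3980 and 0, the distal gut factor Hoxa9 1 and 10044, and the proximal gut factor Gata4 3090 and 1. The control matrix also names another software version and lists 6794880 barcodes, against 737280 in the RSPO1-Fc matrix. The labels name the v2 kit for both libraries, whereas a list of the control's size belongs to the v3 kit, so the kits may have differed too. Epithelial markers summed to 10014 CPM in RSPO1-Fc and 8288 CPM in control epithelial cells, macrophage markers to 23.5 and 136 CPM, and fibroblast markers to 1.01 and 58.2 CPM. Of the control epithelial cells, 114 held at least 20 UMIs of a non-epithelial list, against 0 with RSPO1-Fc, and without them the same number of members, 4, was lower in RSPO1-Fc cells. The effect of RSPO1-Fc cannot be told apart from any of these differences, the kit included, in any ratio of the RSPO1-Fc over the control library. Levels are CPM, the summed UMIs of a gene per 1000000 UMIs of the shared genes, and the ranges in parentheses after a fold are 95% intervals, which cover counting error only. A gene was counted as higher or lower when it reached at least 20 CPM in either group and differed at least 2-fold.

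Most members were lower in RSPO1-Fc than in control epithelial cells. Of the groups of members, the sensors and factors, with Xbp1 among them, had the lowest median log2 ratio (-1.05). Of the 34 members, 28 reached 20 CPM, of which 0 were at least 2-fold higher and 4 at least 2-fold lower (Xbp1, Dnajb9, Hyou1 and Pdia3). Among all 6911 genes tested, 7.23% were higher and 18.7% were lower, so the share of members counted as lower was not above that of genes at large. The median log2 ratio was -0.42 over the members and -0.18 over all genes tested. Above 0 lay 9 of 34 members (26.5%) and 41.7% of all genes tested. These values depend on the scaling: with the trimmed mean of M values (TMM) the median of all genes moved to 0.21, 14.3% of genes were higher and 11.2% lower, none of the 4 members remained 2-fold lower, and 14 of 34 members lay above 0. Relative to the median of all genes, the median of the members was -0.24 with the scaling to total UMIs and -0.32 with TMM.

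Among the 15 ER chaperones and folding enzymes, 3 were at least 2-fold lower and 0 higher, and their median log2 ratio was -0.45 (range -1.11 to 0.49), or -0.11 with TMM. BiP (Hspa5, chr2:34771970-34777547), the main Hsp70 of the ER and the protein that holds the sensors inactive, was at 316 CPM in RSPO1-Fc cells against 557 CPM in control cells, 0.567-fold (0.557 to 0.576). Pdia3, the disulfide isomerase that works with the lectin chaperones, was at 229 against 480.2 CPM (0.477-fold, 0.468 to 0.486). Dnajb9, an ER J protein that restrains Ire1, was at 18.2 against 40.4 CPM (0.451-fold, 0.422 to 0.482). Pdia3 and Dnajb9 thus had lower ratios than BiP itself. Hyou1, the nucleotide exchange factor of BiP, was at 11.6 against 25.7 CPM (0.453-fold, 0.416 to 0.493).

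The other chaperones lay between these values and a level above control. The ER Hsp90, Hsp90b1, was at 346 CPM in RSPO1-Fc and 518 CPM in control cells, the isomerase Pdia4 at 66.1 and 115 CPM, and Dnajc3, a J protein that also inhibits eIF2α kinases, at 53.6 and 91.7 CPM. Dnajb11, a further J protein partner of BiP, was at 74.3 and 102 CPM. The differences were smaller for the lectin chaperones calreticulin (Calr, 494 and 614 CPM) and calnexin (Canx, 209.5 and 223 CPM), and for the isomerases P4hb (242 and 308 CPM) and Pdia6 (162 and 194 CPM). With TMM the log2 ratios of Calr, Canx and Pdia6 turned to 0.03, 0.25 and 0.08. Of the group, 3 members did not lie below control: the secreted ER protein Manf was level at 237 and 236 CPM, while Sdf2l1, a partner of ER J proteins, reached 71.2 against 50.5 CPM (1.41-fold, 1.35 to 1.47), and Creld2 38.1 against 26.9 CPM (1.42-fold, 1.33 to 1.5). The chaperones therefore did not move as a block, since BiP and Sdf2l1 differed in the direction of their ratio under both scalings. Of the members just shown with an ERSE, Hspa5 was 0.567-fold and Creld2 was 1.42-fold of control. Over the 7 chaperones with an ERSE the log2 ratios ranged from -0.82 to 0.49 with a median of -0.31. Over the 6 with a window and no ERSE they ranged from -1.11 to 0.49 with a median of -0.62, and these 6 include Dnajb11, which holds ERSE-II.

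**Figure D1:**
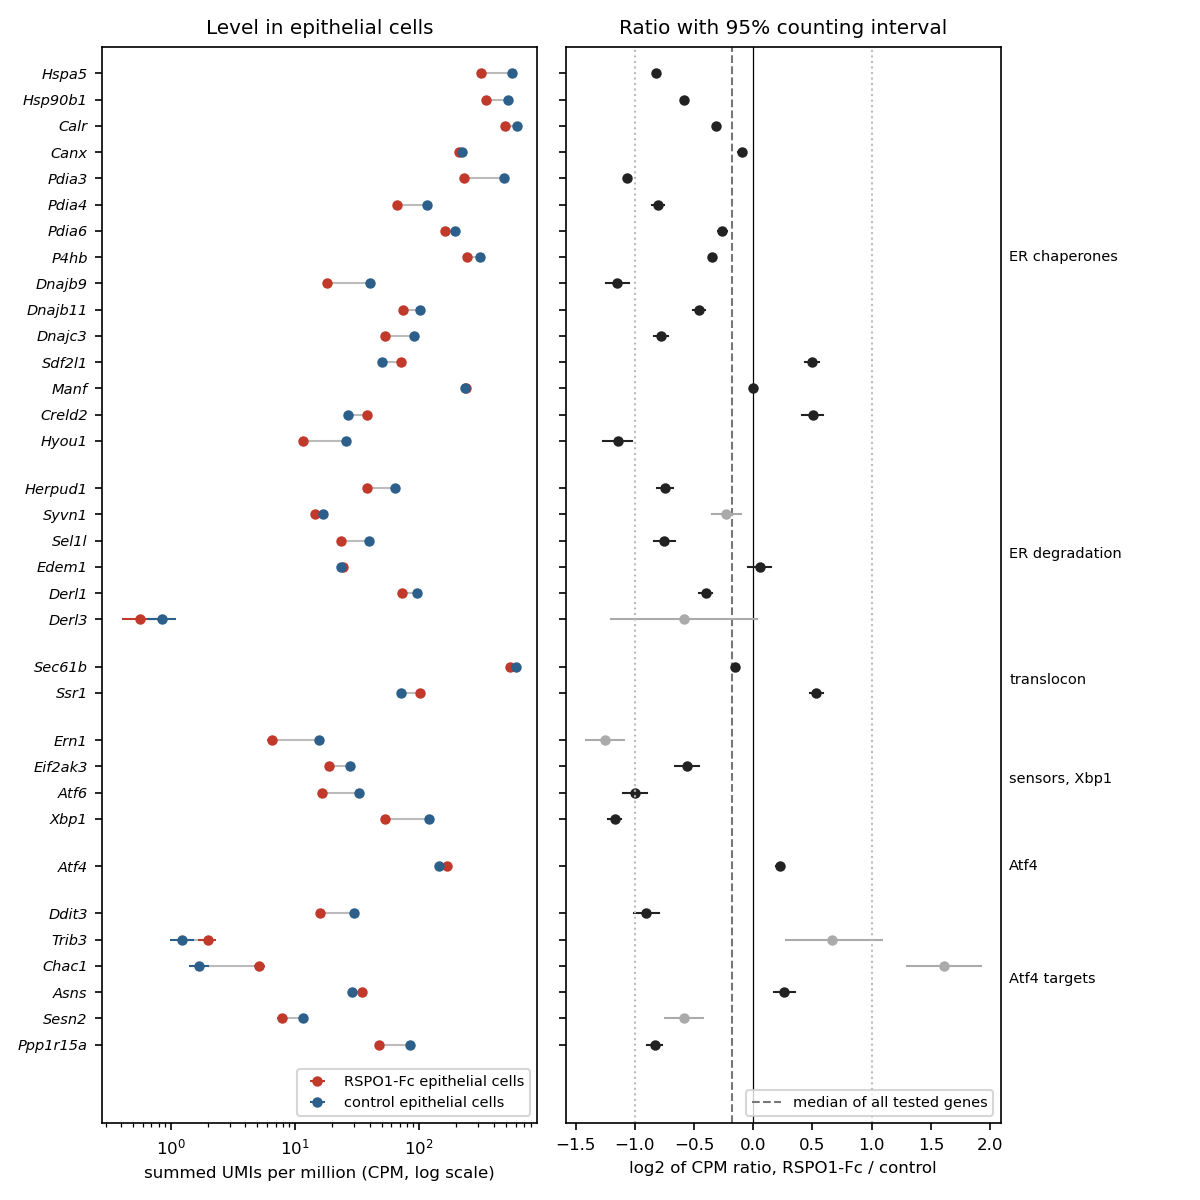
Members in epithelial cells, by role. Left, CPM on a log scale in RSPO1-Fc (red) and control (blue) cells, with 1 library per group; right, the log2 ratio of CPM, RSPO1-Fc over control, with 95% counting intervals, a dashed line at the median of all genes tested (-0.18) and dotted lines at 2-fold, grey where both levels are under 20 CPM. Xbp1, Dnajb9, Hyou1 and Pdia3 lie at or beyond the lower 2-fold line, while Sdf2l1, Creld2 and Ssr1 lie above 0.

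ER-associated degradation returns misfolded proteins to the cytosol for destruction. None of its 6 members differed 2-fold, and their median log2 ratio was -0.32 (-0.08 with TMM). Herpud1, a membrane scaffold of the degradation complex, was at 38 CPM in RSPO1-Fc and 63.8 CPM in control cells (0.596-fold, 0.568 to 0.626). Sel1l, the adaptor of the ubiquitin ligase, was at 23.6 and 39.8 CPM (0.593-fold, 0.558 to 0.631), and the channel protein Derl1 at 72.4 and 95.6 CPM. The ligase itself, Syvn1, was at 14.5 and 16.9 CPM (its log2 ratio of -0.21 turned to 0.11 with TMM), and Edem1, which picks out mannose-trimmed glycoproteins, was level at 24.6 and 23.7 CPM. Derl3, a Derlin of highly secretory cells, was near the detection limit with 40 UMIs in RSPO1-Fc and 57 UMIs in control cells. In the translocon, through which new proteins enter the ER, the channel subunit Sec61b was at 539 and 599 CPM, and Ssr1, a subunit of the translocon-associated complex, was higher than control at 102 against 71.1 CPM (1.44-fold, 1.39 to 1.5). With TMM the ratio of Sec61b turned to 1.14-fold.

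All 4 sensors and factors were lower than control, with a median log2 ratio of -1.05 (-0.72 with TMM), and Xbp1 passed the 2-fold limit. Xbp1 (chr11:5520659-5525893), whose messenger is spliced by Ire1 into the active factor, was at 53.6 CPM in RSPO1-Fc and 121 CPM in control cells, from 3768 and 8064 UMIs (0.445-fold, 0.428 to 0.462). With TMM this ratio was 0.563-fold. Ern1, which encodes Ire1α, was at 6.6 and 15.7 CPM and so stayed under 20 CPM in both. Atf6, a sensor that is cleaved into a transcription factor, was at 16.5 and 32.9 CPM (0.501-fold, 0.466 to 0.538), just short of the limit. Eif2ak3, which encodes Perk, was at 18.9 and 27.9 CPM (0.678-fold, 0.631 to 0.728). Counts of 3′ ends do not separate spliced from unspliced Xbp1, so these values give the amount of the messenger and not its splicing.

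Atf4 and its targets were split, unlike the sensors. Atf4 (chr15:80255184-80257541), the factor whose translation goes up when eIF2α is phosphorylated, was at 169 CPM in RSPO1-Fc and 145 CPM in control cells (1.17-fold, 1.14 to 1.2). Of its 6 targets 3 lay above and 3 below control, none of the 3 that reached 20 CPM differed 2-fold, and the median log2 ratio was -0.14, which turned to 0.18 with TMM. The median depends on which targets are taken, since over the 3 that reached 20 CPM it was -0.82. Their summed level was 113 CPM in RSPO1-Fc and 158 CPM in control cells (0.717-fold, 0.697 to 0.739), a ratio equal to that of the summed chaperones at 2568 and 3583 CPM (0.717-fold, 0.712 to 0.721), and with TMM both sums were 0.908-fold. Ppp1r15a alone gave 47.2 of the 113 CPM and 84 of the 158 CPM. The gap in the sum of the targets was thus largely that of 1 gene. Above control were Asns, the asparagine synthetase, at 34.8 and 29 CPM (1.2-fold, 1.13 to 1.28), the pseudokinase Trib3 at 1.98 and 1.24 CPM (1.59-fold, 1.21 to 2.12), and Chac1, which degrades glutathione, at 5.19 and 1.7 CPM. Chac1 rested on 365 UMIs in RSPO1-Fc and 114 UMIs in control cells (3.05-fold, 2.46 to 3.79) and was the single member past 2-fold higher when the minimum of 20 CPM was dropped. Those 3 are also the targets whose windows hold the C/EBP-ATF element, but Trib3 and Chac1 stayed under 20 CPM. Herpud1, outside the targets, holds the element too and was at 0.596-fold of control. Windows of 300 bases can miss elements elsewhere, and a link between element and ratio was not tested.

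The other 3 targets lay below control. Ddit3 (chr10:127290774-127296288), which encodes the pro-apoptotic factor Chop, was at 16 CPM in RSPO1-Fc and 29.8 CPM in control cells (0.535-fold, 0.497 to 0.576). Ppp1r15a, the phosphatase subunit Gadd34 that restores eIF2α, was at 47.2 and 84 CPM (0.562-fold, 0.538 to 0.587), and Sesn2, an inhibitor of mTORC1 under stress, at 7.81 and 11.7 CPM. The control table lists a second gene, with 0 UMIs, that overlaps 2925 bases of Ddit3 on its strand and is absent from the other table, and whether this took reads from Ddit3 in the control library was not tested. Immediate early genes, which dissociation of tissue can induce, were also lower: of 13, 6 were at least 2-fold lower and 0 higher, their median log2 ratio was -0.90, and their summed level was 3606 CPM in RSPO1-Fc and 7527 CPM in control cells. Their part in the lower Ddit3 and Ppp1r15a was not tested.

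Genes of the same pathways outside the list were also examined, and these lists too were drawn up with earlier results of the data known. Their medians differed, but their summed levels did so less, with ER machinery at 0.792-fold of control (0.788 to 0.795) and the amino acid and Atf4 programme at 0.741-fold (0.737 to 0.745), or 1-fold and 0.938-fold with TMM. The sum of the programme leans on 1 abundant gene, Atf3, which was at 0.25-fold of control. Of 52 further genes of ER machinery, 46 reached 20 CPM, 1 was higher and 10 were lower, with a median log2 ratio of -0.41, and with TMM the counts were 3 and 6 at a median of -0.08. The share of lower genes was again close to the 18.7% of all genes. The higher one was Ero1l, the oxidase that recharges disulfide isomerases, at 67 CPM in RSPO1-Fc and 30.9 CPM in control cells (2.17-fold, 2.06 to 2.29). The lowest were Creb3l1, an ER-bound factor of secretory cells, at 2.49 and 27.6 CPM, and Agr2, a disulfide isomerase needed for mucin, at 43.1 and 177 CPM. Creb3l2, a relative of Creb3l1, was at 13.8 and 43.8 CPM, and the lectin Os9 of ER-associated degradation at 39.6 and 107 CPM. These 5 kept their direction and stayed past 2-fold with TMM.

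In the amino acid and Atf4 programme outside the list, 35 of 42 genes reached 20 CPM, of which 5 were higher and 9 lower. Among all genes tested 7.23% were higher and 18.7% lower. The median log2 ratio of the 42 was 0.11. With TMM 11 were higher and 6 lower at a median of 0.44, where 14.3% and 11.2% of all genes were. Enzymes of serine and one-carbon metabolism were among the higher ones: Psat1, of serine synthesis, was at 85.1 CPM in RSPO1-Fc and 17.1 CPM in control cells (4.98-fold, 4.67 to 5.31). Shmt2, the mitochondrial serine hydroxymethyltransferase, was at 79.7 and 26.1 CPM, and Mthfd2, the mitochondrial folate enzyme and the one gene outside the naming rule here, at 48.2 and 16.1 CPM. The alanyl-tRNA synthetase Aars was at 146 and 35.6 CPM, and Eif4ebp1, a repressor of cap-dependent translation, at 155 and 40 CPM. On the other side, Pycr1 of proline synthesis was at 9.74 and 94.4 CPM (0.103-fold, 0.0953 to 0.112), and Vegfa, an angiogenic factor, at 9.09 and 35.4 CPM. Slc7a11, the cystine carrier, was at 15.3 and 57.7 CPM, and Atf3, which is also an immediate early gene, at 304 and 1218 CPM. The summed programme was at 2716 CPM in RSPO1-Fc and 3666 CPM in control cells, so Atf3 made up most of that gap. The targets of Atf4 thus differed in both directions, outside the list as well as within it, as did genes at large. Of the 10 genes for eIF2α, its kinases, a phosphatase subunit and eIF2B, 9 reached 20 CPM, 0 were higher and 1 was lower. The lower one was Eif2ak2, the kinase that senses double-stranded RNA, at 17.2 and 39.7 CPM, and with TMM 0 were lower.

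**Figure D2:**
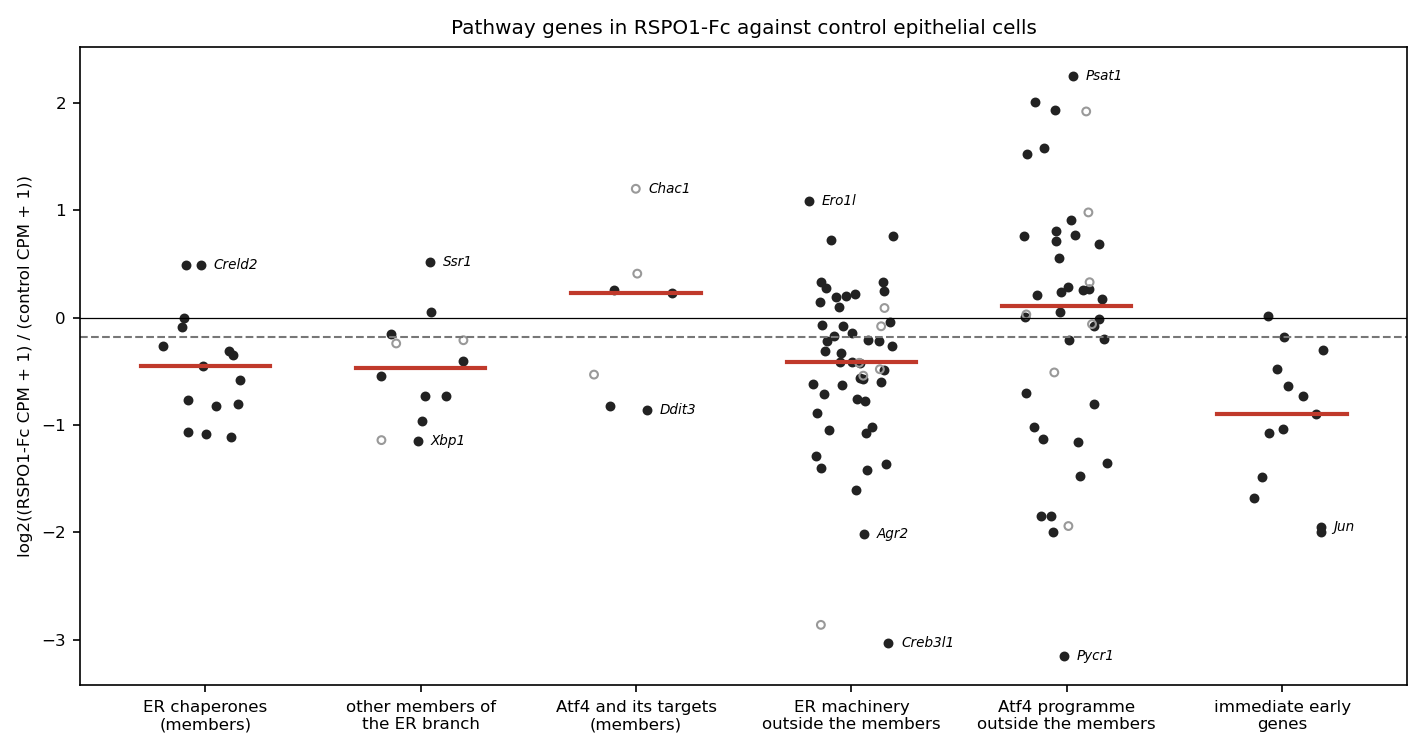
Log2 ratio of each gene, RSPO1-Fc over control epithelial cells with a pseudocount of 1 CPM, for the members and for related genes outside the list. Filled points reached 20 CPM, open points did not, red bars are medians and the dashed line is the median of all genes tested (-0.18); the 15 chaperones have a median of -0.45, and the Atf4 programme spreads from -3.15 to 2.25.

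Cells of each library were next compared with each other, after each epithelial cell had been thinned to 5000 UMIs. The summed chaperones varied more between cells than counting alone gives: the median was 12 UMIs per cell with RSPO1-Fc (5th to 95th percentile 5 to 25) and 17 UMIs in control (8 to 32), and the variance over the mean was 3.79 and 3.69. The summed Atf4 targets were sparse, with medians of 0 and 1 UMI and a variance over the mean of 1.23 and 1.35. The 2 arms showed almost no relation across cells, with a Spearman rho of 0.03 (2751 RSPO1-Fc cells) and 0.04 (1881 control cells). Such weak values in sparse counts are no finding, and the points share a library. The chaperones were more closely related to the ER machinery outside the list, with rho of 0.28 in RSPO1-Fc and 0.47 in control cells.

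Within the list, Hspa5, Hsp90b1 and Calr were the members most closely tied to the other chaperones. The rho of Hspa5 with the sum of the others was 0.26 in RSPO1-Fc and 0.39 in control cells, that of Calr was 0.28 and 0.34, and that of Hsp90b1 was 0.25 and 0.36. Manf followed with 0.23 and 0.28, and Pdia6 with 0.24 and 0.27. At the other end, Dnajb9 (0.02 and 0.06), Sel1l (0.02 and 0.03) and Ddit3 (-0.03 and 0.04) showed next to none at their low counts. Atf4 was related neither to the chaperones (0.05 and 0.01) nor clearly to its listed targets (0.03 and 0.08). Ppp1r15a and Ddit3 had their highest rho with immediate early genes in RSPO1-Fc cells (0.13 and 0.09), and in control cells these values were 0.21 and 0.14. The summed chaperones had a rho of -0.05 in RSPO1-Fc and -0.23 in control cells with the mitochondrial share, whose part in these relations was not tested.

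Genes outside the list whose level ran most closely with the summed chaperones were ranked in each library among the genes detected there, so the 2 lists come from different sets of genes. In RSPO1-Fc cells, among 2997 genes found in at least 20% of thinned cells, they were Hsp90aa1 (rho 0.18), Msln, Tubb4b, Krt7, Ncl, Rpn1, Tagln2, Fam213a, Ctsl and Ranbp1 (0.12). In control cells, among 3382 genes, they were Fth1 (0.28), Dad1 (0.27), Ppib (0.23), Cd177, Lrg1, Lect2, Spock2, Cyba, Tmem176a and Lcn2 (0.19). Rpn1 and Dad1 are subunits of the oligosaccharyltransferase, which adds glycans to proteins that enter the ER, and Ppib is an ER prolyl isomerase. Rpn1 ranked 6 in RSPO1-Fc and 89 in control cells, and Dad1 ranked 85 and 2.

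The relation to secreted cargo was examined by ranking cells on 43 genes of secreted mucins, defensins, Reg proteins, hormones and other cargo. The chaperones had a rho of 0.16 with this cargo in RSPO1-Fc and 0.14 in control cells, and the Atf4 targets 0.10 and 0.16. Single cargo genes differed in their rho with the chaperones. Among the more widely detected ones it ran from -0.09 (Mgp) to 0.19 (Lcn2) in control cells. With RSPO1-Fc it ran from 0.00 (Pyy) to 0.11 (Clu), and Defa24 was at 0.02. In 5 groups of about equal size from least to most cargo, the summed chaperones of RSPO1-Fc cells were 23.8, 23.5, 25.1, 25.8 and 33.5 UMIs per 10000. In control cells they were 31.1, 34.9, 37.2, 36.8 and 38.3. The step in RSPO1-Fc cells thus lay in the group with most cargo, whereas in control cells the lowest value was that of the group with least cargo. Xbp1 followed cargo in both libraries, at 0.465 in the group with least and 0.84 in the group with most cargo with RSPO1-Fc, and at 0.844 and 1.87 in control. Herpud1 was at 0.407 and 0.462 in these groups of RSPO1-Fc cells, and at 0.477 and 0.888 in those of control cells. The middle group of RSPO1-Fc cells had the lowest Herpud1 value, 0.309, so that library shows no ordered course for it.

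The Atf4 targets were also higher in cells with more cargo. Their sums were 0.995 UMIs per 10000 in the group with least and 1.62 in the group with most cargo with RSPO1-Fc, and 1.24 and 2.12 in control. For Ddit3 these values were 0.152 and 0.276 with RSPO1-Fc, and 0.175 and 0.463 in control. Atf4 itself was at 1.65 and 1.6 with RSPO1-Fc, and at 1.25 and 1.69 in control. Immediate early genes were likewise higher in the group with most cargo, at 35 in the group with least and 43.4 in the group with most cargo with RSPO1-Fc, and at 64.8 and 88.6 in control. Depth before thinning ran the other way, with fewer UMIs per cell in the group with most cargo than in the group with least (20692 against 25172 with RSPO1-Fc, 22694 against 30535 in control). Cytosolic ribosomal protein genes were lower in cells with more cargo, with a rho of -0.50 in RSPO1-Fc and -0.57 in control cells. Their rho with the chaperones was -0.24 and -0.03, and with the Atf4 targets -0.13 and -0.15. The part of immediate early genes, depth or ribosomal protein genes in the values by cargo was not tested. The cargo itself differed: Clu made up 33.8% of it in RSPO1-Fc cells, followed by Defa24 with 11.4%, while Mgp with 20.9% and Wif1 with 16.3% led in control cells. The 2 rankings are therefore not rankings by the same proteins.

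**Figure D3:**
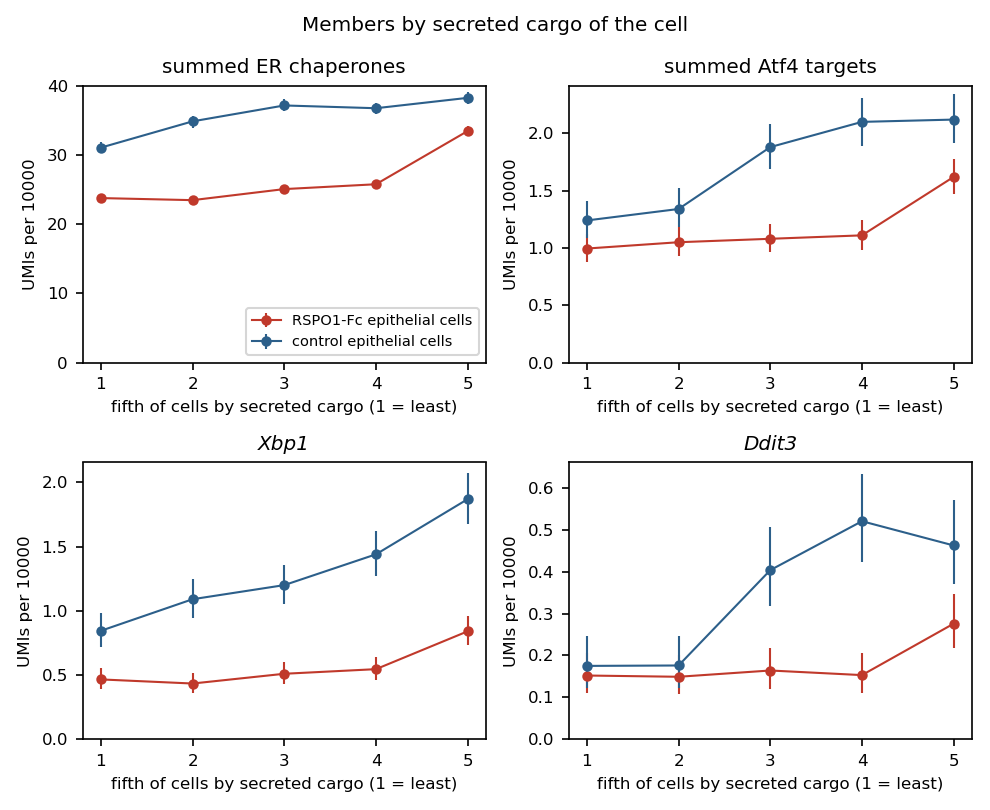
Summed chaperones, summed Atf4 targets, Xbp1 and Ddit3 (UMIs per 10000 in thinned cells) in 5 groups of epithelial cells ranked by secreted cargo, in the RSPO1-Fc (red) and control (blue) libraries. Bars are 95% counting intervals; the red chaperone line steps up to 33.5 in the group with most cargo, and Xbp1 reaches 1.87 in the corresponding control group.

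Epithelial cells of the control library that carry Muc2, the gel-forming mucin of goblet cells, had higher levels of most chaperones and degradation genes than the others. The planned gate of at least 5 UMIs of 6 goblet genes held 451 RSPO1-Fc cells, in which the thinned chaperones were at 24.6 UMIs per 10000 against 26.7 in the other RSPO1-Fc cells, and 47 control cells with 50.6 against 35.3 in the other control cells. Of these libraries 709 and 86 cells lay near the limit, with 3 to 7 UMIs, and cells inside this gate were deeper, with medians of 29659 against 22413 UMIs with RSPO1-Fc and 43943 against 27497 UMIs in control. A gate on Muc2 alone, at least 5 UMIs, was added after these values had been seen. It held 14 of 1881 control cells and 1 of 2751 RSPO1-Fc cells, so only the control library gives a value, and 3 control cells lay near the limit. Of the 29 members that reached 20 CPM, 15 were at least 2-fold higher in the 14 cells than in the other 1867 and 0 were lower, where 6.36% of all 6871 genes tested were higher and 6.52% lower. The median log2 ratio was 0.98 over the members and -0.17 over all genes tested. Without the cell that held most Muc2 UMIs, 14 members were higher.

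Chaperones and degradation genes led this difference. Among chaperones 10 of 15 were higher, with a median log2 ratio of 1.10: Hspa5 was at 1276 CPM in Muc2 cells against 549 CPM in the others (2.33-fold, 2.18 to 2.48), Hyou1 at 79.9 against 25.1 CPM (3.19-fold, 2.43 to 4.12) and P4hb at 901 against 301 CPM (2.99-fold, 2.77 to 3.23). Edem1 was at 102 against 22.8 CPM (4.48-fold, 3.52 to 5.62) and Sel1l at 124 against 38.8 CPM (3.21-fold, 2.58 to 3.94). Ssr1 of the translocon was at 165 against 70 CPM, and Xbp1 at 209 against 119.5 CPM (1.75-fold, 1.49 to 2.05). Of the integrated stress arm, Asns was counted as higher, at 66.8 against 28.6 CPM (2.34-fold, 1.73 to 3.09), while Chac1 stayed under 20 CPM at 7.85 against 1.63 CPM, from 6 UMIs in Muc2 cells (4.81-fold, 1.73 to 10.8). Atf4 was level at 145 CPM in both groups, Ddit3 was at 30.1 against 29.8 CPM, and Ppp1r15a was at 55 against 84.4 CPM (0.652-fold, 0.469 to 0.882).

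Cell by cell, the summed chaperones of the 14 Muc2 cells ranged from 19.8 to 192 per 10000 UMIs with a median of 69.9, and those of the other cells from 6.22 to 116 with a median of 33.1. The groups overlapped, with 9 of the 14 cells above the 95th percentile of the others (58.4). Outside the list, 19 of 49 genes of ER machinery were higher in these cells, among them Agr2 at 5088 against 120.2 CPM, Ern2, an Ire1 of mucous epithelium, at 87.7 against 14.5 CPM, and Creb3l1 at 136 against 26.3 CPM. These 3 were chosen after their values were seen. The Muc2 cells were also deeper, with a median of 49974 UMIs against 27640, and at 5000 UMIs per cell their chaperones were at 84 per 10000 against 35.3 (2.38-fold, 2.19 to 2.58). Doublets were not removed and 1 of the 14 cells held at least 20 UMIs of a non-epithelial marker list; the part of doublets was not tested.

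**Figure D4:**
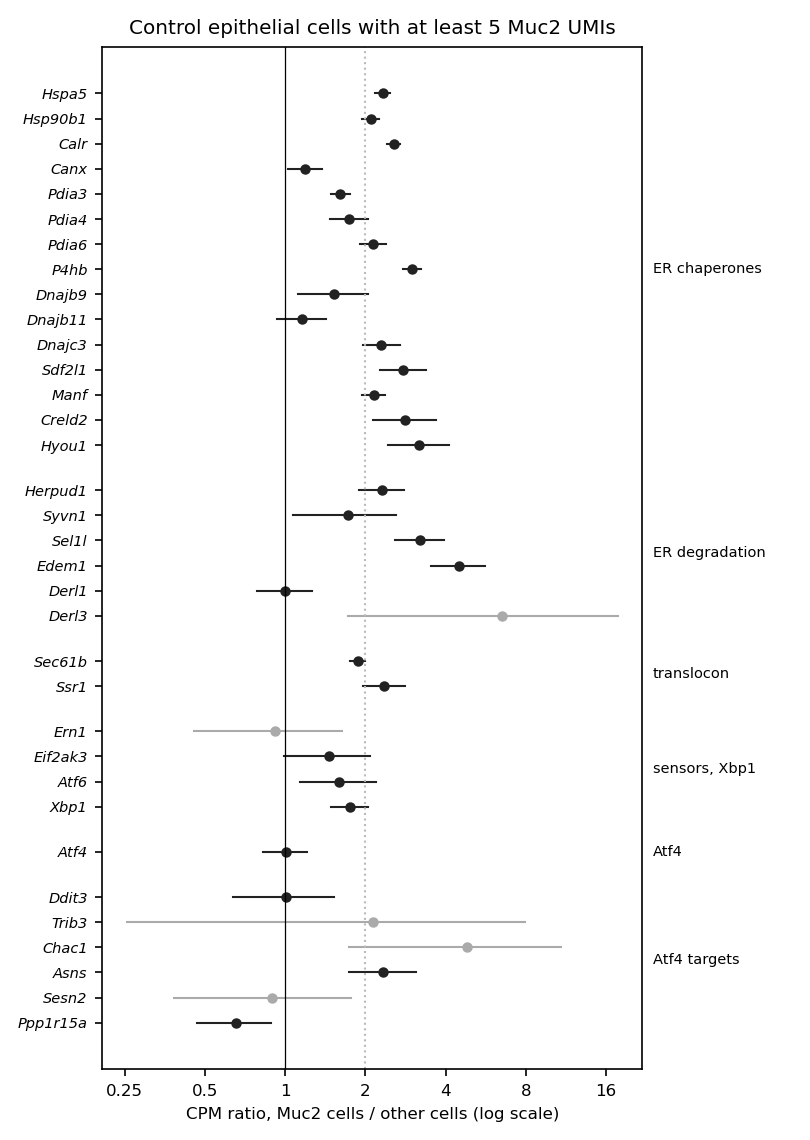
CPM ratio of each member in the 14 control epithelial cells with at least 5 Muc2 UMIs over the other 1867, on a log axis, with 95% counting intervals, grey where both levels are under 20 CPM. Most chaperones and degradation genes lie near or above the dotted 2-fold line, whereas Atf4, Ddit3 and Derl1 lie close to 1.

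In other secretory gates the summed chaperones differed less. In 29 RSPO1-Fc cells with at least 5 UMIs of the granins Chga and Chgb, which mark enteroendocrine cells, a gate also added afterwards, Xbp1 was at 145 CPM against 52.8 CPM in the other RSPO1-Fc cells (2.75-fold, 2.18 to 3.41). Ddit3 was at 40.2 against 15.8 CPM (2.55-fold, 1.61 to 3.85), Herpud1 at 89.2 against 37.6 CPM (2.37-fold, 1.76 to 3.13) and Hspa5 at 421 against 315 CPM (1.34-fold, 1.17 to 1.52). The ratios of Xbp1, Ddit3 and Herpud1 thus lay above that of the summed chaperones, which were at 35 against 26.2 UMIs per 10000 after thinning (1.33-fold, 1.22 to 1.46). Edem1, by contrast, was at 15.7 against 24.7 CPM (0.637-fold, 0.291 to 1.21). With at least 5 UMIs of alpha-defensins, the thinned chaperones were at 25.5 per 10000 in 1108 RSPO1-Fc cells against 26.9 in the other RSPO1-Fc cells, and at 50 in 14 control cells against 35.5 in the other control cells. The other planned gates gave 25.9 against 28.6 (Paneth cargo, 2307 RSPO1-Fc cells) and 36.7 against 33.6 (1249 control cells), and 27.4 against 26.3 (enteroendocrine cargo, 149 RSPO1-Fc cells) and 35.9 against 35.6 (30 control cells). These gates turn in part on depth and on few UMIs: with RSPO1-Fc 1521 cells had 3 to 7 UMIs of alpha-defensins and 921 of Paneth cargo, and cells inside these gates had medians of 30558 and 25076 UMIs against 19961 and 16122 UMIs outside them. In control 518 cells had 3 to 7 UMIs of Paneth cargo, with medians of 33314 UMIs inside and 21967 UMIs outside that gate, and for alpha-defensins 6 cells, with 40286 and 27707 UMIs. The Chga and Chgb cells were shallower than the others, at 14834 against 23597 UMIs, and 17 cells lay near that limit.

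In the control culture 368 cells had under 5 Epcam UMIs and at least 20 UMIs of 1 non-epithelial marker list, namely 178 macrophages, 78 endothelial cells, 81 fibroblasts and 31 pericytes or smooth muscle cells, each named by the list with most UMIs, and the RSPO1-Fc library had 0 such cells. These cells let the members be read in other cell types of the same library. Over all 368, 1 of the 28 members tested was higher than in epithelial cells (Edem1) and 2 were lower (Eif2ak3 and Asns), against 21.6% and 16.9% of all genes, so fewer members than genes at large differed. The chaperones were close to the epithelial level, with a median log2 ratio of 0.11 and 0 of 15 past 2-fold in either direction. The 6 Atf4 targets had a median log2 ratio of -0.20, and the median of all genes tested was -0.19. By class, the summed Atf4 targets were 0.803-fold of the epithelial level in macrophages and 0.978-fold in fibroblasts. In endothelial cells they were 1.41-fold and in pericytes 1.52-fold. Ppp1r15a made up most of the sum there, at 161 of 222 CPM in endothelial cells and 187 of 240.0 CPM in pericytes. The median log2 ratio of the 6 targets was -0.04 in endothelial cells and -0.47 in pericytes, and -0.78 in macrophages and -0.28 in fibroblasts.

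Edem1 lay above and Eif2ak3 below the epithelial level in every one of the 4 classes. Edem1 was at 104 CPM in macrophages, 42.7 in endothelial cells, 49.5 in fibroblasts and 39.2 in pericytes, against 23.7 CPM in epithelial cells. Eif2ak3 was at 9.16, 11.1, 12.2 and 9.23 CPM in these classes, against 27.9 CPM in epithelial cells, and was the single member counted as lower in all 4 classes. Its pericyte value rests on 4 UMIs. Chac1 had 0 UMIs in macrophages, fibroblasts and pericytes, which allows up to 1.06, 2.29 and 6.92 CPM, against 1.7 CPM in epithelial cells. Trib3 had 0 UMIs in pericytes, and Derl3 in endothelial cells (up to 2.28 CPM) and pericytes.

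Each class had its own pattern among the members. In macrophages 17.9% of genes were higher and 27.9% lower than in epithelial cells, and of the members Edem1 was higher (4.38-fold, 3.86 to 4.97), and Asns and Eif2ak3 were lower. Asns had 4 UMIs in all macrophages, at 1.41 CPM against 29 CPM in epithelial cells (0.0486-fold, 0.0132 to 0.125), and Atf4 was at 79.2 against 145 CPM. The next highest ratios there were those of Sdf2l1 (93.7 against 50.5 CPM) and Ssr1 (115 against 71.1 CPM). In endothelial cells 19.6% of genes were higher and 20% lower. Xbp1 was the member counted as higher there, at 242 against 121 CPM (2.01-fold, 1.81 to 2.22), followed by Ppp1r15a at 161 against 84 CPM, while Sdf2l1 was lower at 16.1 against 50.5 CPM, as was Eif2ak3. The median log2 ratio of the 15 chaperones was -0.37. Pdia4 had the next lowest ratio there, at 59.4 against 115 CPM. Trib3 had the highest ratio of the class, at 6.19 against 1.24 CPM, but stayed under 20 CPM and rests on 10 UMIs.

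Fibroblasts, which secrete collagen and other matrix proteins, held the highest summed chaperones of the 4 classes, at 5157 CPM (5035 to 5281) against 3583 CPM (3569 to 3598) in epithelial cells. There 19.9% of genes were higher and 19.6% lower. The median log2 ratio of the chaperones was 0.58, and 13 of 15 lay above 0, against 43% of all genes tested. Dnajc3 was at 256 against 91.7 CPM (2.79-fold, 2.49 to 3.12) and Edem1 at 2.09-fold, while Sel1l at 79.3 against 39.8 CPM came just short of 2-fold. Asns and Eif2ak3 were lower, and Sec61b was next at 480.2 against 599 CPM. Of the 15 chaperones, 1 thus reached 2-fold in fibroblasts. In pericytes 20.5% of genes were higher and 22.1% lower. Ppp1r15a was higher at 187 against 84 CPM (2.22-fold, 1.76 to 2.77), Dnajc3 was at 155 against 91.7 CPM, and the lower members Asns, Eif2ak3, Sdf2l1 and Creld2 rest on 1, 4, 8 and 5 UMIs. Immediate early genes were at 12025 CPM in pericytes and 10360 CPM in endothelial cells against 7527 CPM in epithelial cells, and their part in the Ppp1r15a values was not tested.

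**Figure D5:**
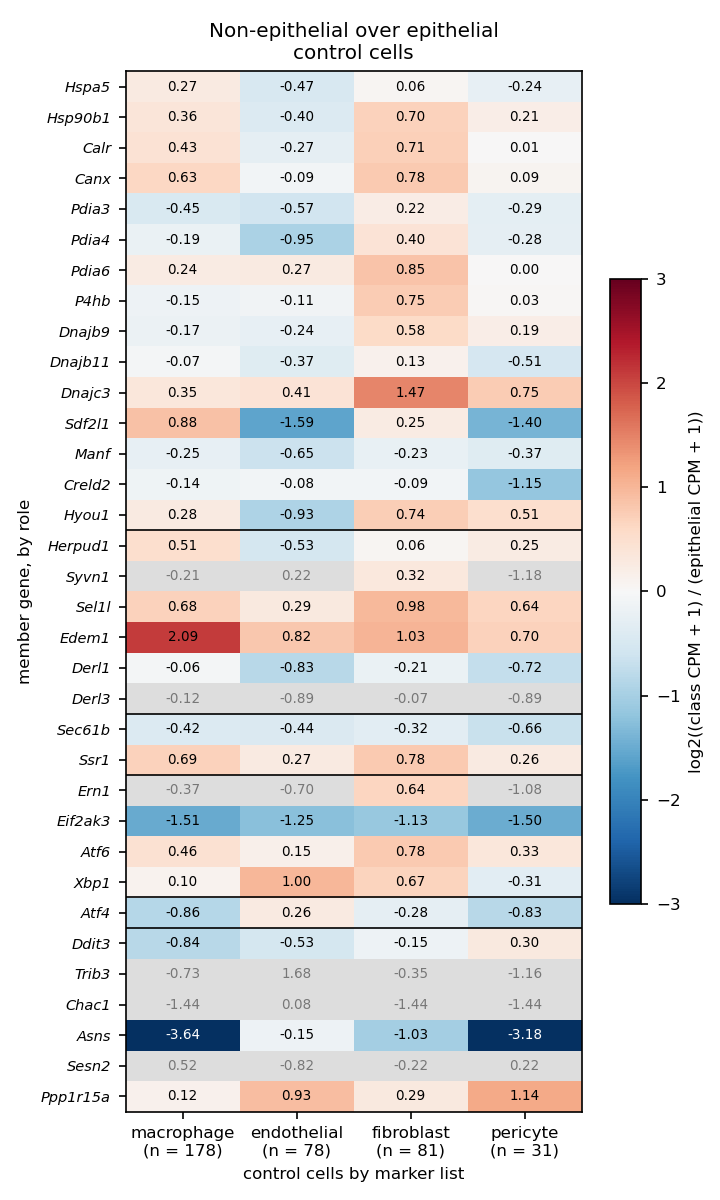
Log2 ratio of each member in 4 classes of non-epithelial control cells over control epithelial cells, with a pseudocount of 1 CPM, grey where both levels are under 20 CPM. Eif2ak3 is blue in all 4 columns, Edem1 is red in all 4, and Asns is lowest in macrophages (-3.64) and pericytes (-3.18).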

How the data were processed

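The authors deposited unnormalized UMI counts for every barcode, so cells were selected here by the limits stated above. For the software and build, Cell Ranger (2.1.1), Seurat (3.1.1) and mm10 are listed in the submitters' processing notes, but the header of the control matrix gives Cell Ranger version 3.1.0. The tables were joined on 27514 Ensembl identifiers, and gene coordinates are from GENCODE M21 (GRCm38). Counts were summed over cells of a group and scaled to CPM, with a pseudocount of 1 CPM for log2 ratios. Intervals are exact Poisson (levels) or conditional Clopper-Pearson (ratios). Cells were thinned once to 5000 UMIs, with 0 cells left out, for correlations and cargo groups. No doublet caller was run and no clustering was used. Calls and intervals were tested on simulated counts. Calculations used Python 3.11.15, numpy 2.4.6, scipy 1.17.1 and, for TMM, edgeR 4.0.16. Of 44 cargo genes 43 were matched.

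The members and lists were chosen with earlier results of these data known. Named were all members, the 4 highest and 4 lowest counted genes of each other list and the 10 genes most like the summed chaperones. Per class, the 3 highest and 3 lowest of the members that reached 20 CPM were named. Cell types rest on marker lists: pericytes also held fibroblast markers at 9102 CPM. Alternatives were other scalings, gates, filters, thinning depths and correlation measures.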

Additional observations from a re-analysis of the deposited data

Results flagged for a closer look

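In the control library 20 cells above the UMI limit had under 5 Epcam UMIs and belonged to no class, and 8 of them had at least 3 UMIs of T, B and plasma cell markers. One of these, outside every comparison, had 8435 UMIs of the shared genes, of which 1309 were such markers and 1287 were Jchain, the joining chain of secreted antibodies. The UMI limit, by contrast, counts all genes of the control table. This cell held 88 chaperone UMIs, or 104 per 10000 UMIs of the shared genes, where the 20 cells had a median of 31.2 on the same scale. Its members included 23 UMIs each of Xbp1 and Hsp90b1, 12 of Hspa5, 11 of Edem1 and 3 of Derl3. Another of the 20 cells, with 0 UMIs of T, B and plasma cell markers, was at 84.4 chaperone UMIs per 10000. In the RSPO1-Fc library the 16 cells of no class ranged from 3.94 to 29.8 chaperone UMIs per 10000. The Jchain cell is 1 cell, and the values set beside it are no test.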

How the results depend on the processing

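With TMM scaling the median log2 ratio of the chaperones, RSPO1-Fc over control, moved to -0.11, that of the Atf4 targets turned to 0.18, and the number of members at least 2-fold lower moved to 0. With mitochondrial, ribosomal and cargo genes out of the denominator the chaperone median moved to -0.39. With members of at least 20 CPM only, the Atf4 target median moved to -0.82, since 3 targets were then left. Without a minimum CPM 1 member, Chac1, was 2-fold higher. At 1.5-fold 12 members were lower and 0 higher, where 31.9% and 15.9% of all genes were. The causes were not tested. Among genes outside the members, TMM moved the higher and lower counts of ER machinery to 3 and 6 (1 and 10 by total UMIs), of the Atf4 programme to 11 and 6 (5 and 9) and of the eIF2 genes to 0 and 0 (0 and 1). With the other alternatives (Epcam minimum, UMI limit, mitochondrial share, mixed cells, equal weight per cell, free RNA) between 3 and 5 members were lower. The medians of non-epithelial cells and the correlations kept their sign or came to 0.00, as the control rho of chaperones and Atf4 targets did at 3000 UMIs, and moved by at most 0.10. No paired analysis was possible because each group has 1 library. Depth limits Trib3 and Derl3, which rest on 139 and 40 UMIs in RSPO1-Fc and 83 and 57 UMIs in control cells.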

Other observations

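Barcodes with over 100 and up to 500 UMIs, which hold mostly RNA free in the droplets, also carried the members. Summed chaperones were at 2356 CPM in these barcodes of the RSPO1-Fc library against 2568 CPM in its epithelial cells, and at 2540 CPM in those of the control library against 3583 CPM in its epithelial cells. Summed Atf4 targets were at 126 CPM against 113 CPM with RSPO1-Fc, and at 123 CPM against 158 CPM in control. Secreted cargo, on which the cell rankings and secretory gates rest, was at 4675 CPM in these barcodes against 2817 CPM in epithelial cells with RSPO1-Fc, and at 5092 CPM against 5677 CPM in control. Subtracting this profile at the largest share that left no well-covered gene below 0 (0.0475% of UMIs in RSPO1-Fc and 0.651% in control epithelial cells) left the median chaperone ratio at -0.45.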
